A study of Mus musculus with 8 samples.

Results

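A group of 10 immediate-early genes was followed through the livers of mice with and without Med23: Egr1, Fos, Fosb, Jun, Junb, Jund, Atf3, Klf6, Ier2 and Ier3. They were picked by gene symbol, and each of the 10 symbols had 1 locus among the 23699 loci (23235 symbols) listed for every library. Polyadenylated liver RNA was sequenced from male C57/BL6 mice of 8 weeks, with 2 mice in each of 4 groups. The groups were re-fed LMKO (liver-specific Med23 knockout, 24 h without food, then 24 h with food), re-fed control (24 h without food, then 24 h with food), fasted LMKO (24 h without food) and fasted control (24 h without food). All mice thus went through the 24 h fast, and 24 h was the only time sampled after the return of food. The labels call the other genotype control and do not say how Med23 was deleted in liver or which alleles the controls carried.

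Immediate-early genes are switched on by growth factors, hormones and stress through transcription factors that are already present in the cell, so that no new protein has to be made first. Many of their products are themselves transcription factors: FOS and JUN family proteins pair to form AP-1, which binds DNA as a dimer, EGR1 is a zinc-finger activator, and ATF3 is a bZIP factor of the ATF/CREB family that is best known as a stress-induced repressor. KLF6 is a zinc-finger factor, IER2 is a nuclear protein, and IER3 is a stress-response protein that is not a DNA-binding factor, so the group holds genes of immediate-early behaviour rather than transcription factors alone. MED23 belongs to Mediator, which passes signals from DNA-bound factors on to RNA polymerase II. In mouse embryonic stem cells, MED23 is the part of Mediator through which the phosphorylated factor ELK1 acts on the Egr1 promoter.

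Levels were deposited as FPKM, a read density per transcript length and per mapped fragments of the library. FPKM summed to between 453652 and 597650 per library, and the number of fragments behind a value is unknown. Of 11 listed hepatocyte markers found in the files, 10 were at or above 1 FPKM in all 8 libraries, and Alb was listed at 0 in all of them. Med23 itself had 1.61 and 1.74 FPKM in re-fed LMKO and 2.86 and 2.33 FPKM in re-fed control, and 2.35 and 2.18 FPKM in fasted LMKO and 2.86 and 2.93 FPKM in fasted control. These values span the whole gene and all cells of the liver, so any exons that remain after the deletion and any cells that keep Med23 would be included. Neither was tested. Each LMKO library lay below both controls of its feeding state, but the difference over both states did not pass (log2 fold change -0.34 ± 0.08 SE, adjusted p = 0.173 by limma). The deposited file names carried the prefix 26 for all re-fed libraries and 19 for all fasted ones, so whatever the prefix marks and feeding cannot be told apart. The correlation across genes of a library's deviations with log2 transcript length was -0.357 to -0.325 in 3 re-fed libraries and -0.0183 in re-fed control replicate 1, against 0.222 to 0.293 in the 4 fasted libraries.

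The stretches upstream of the start sites of Atf3, Jun, Junb and Klf6 are shown because these are the genes with a RefSeq promoter entry that changed after re-feeding. RefSeq entries were matched for 8 of the 10 genes; Egr1 and Ier2 are named only. The 250 bases before the start are given 5′ to 3′ on build GRCm38.p6. Capitals mark TGACG, a core of the cyclic AMP response element read on either strand (CGTCA on the other), and TGACATCA, a variant of that element.
Atf3, chr1:191183334-191183583, minus strand: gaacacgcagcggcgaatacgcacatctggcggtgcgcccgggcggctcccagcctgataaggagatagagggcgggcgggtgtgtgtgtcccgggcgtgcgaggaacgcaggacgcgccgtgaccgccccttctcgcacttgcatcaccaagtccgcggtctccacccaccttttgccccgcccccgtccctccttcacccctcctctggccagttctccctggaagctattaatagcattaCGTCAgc
Jun, chr4:95052223-95052472, minus strand: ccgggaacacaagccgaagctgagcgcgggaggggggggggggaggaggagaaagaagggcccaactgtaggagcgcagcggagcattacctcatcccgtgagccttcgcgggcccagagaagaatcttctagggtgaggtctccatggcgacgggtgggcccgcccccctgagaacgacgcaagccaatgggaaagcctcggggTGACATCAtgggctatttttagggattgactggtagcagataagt
Junb, chr8:84978749-84978998, minus strand: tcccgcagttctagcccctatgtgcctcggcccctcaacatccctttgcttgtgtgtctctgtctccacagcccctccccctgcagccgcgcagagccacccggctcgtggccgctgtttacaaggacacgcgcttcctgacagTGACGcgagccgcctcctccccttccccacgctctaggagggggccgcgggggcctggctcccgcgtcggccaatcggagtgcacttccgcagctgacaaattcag
Klf6, chr13:5861239-5861488, plus strand: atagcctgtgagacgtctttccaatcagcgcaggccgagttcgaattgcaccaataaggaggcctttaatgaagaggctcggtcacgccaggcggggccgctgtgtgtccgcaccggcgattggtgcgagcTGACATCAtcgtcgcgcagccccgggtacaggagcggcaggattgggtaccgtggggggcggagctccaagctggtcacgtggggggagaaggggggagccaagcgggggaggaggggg
TGACG was found at positions -7 to -3 of Atf3, on the strand opposite the one printed, and at -106 to -102 of Junb, counted back from the start site, and also upstream of Fos and Fosb. It was present in 17.8% of all 32851 promoter windows of this length. TGACATCA stood at -45 to -38 of Jun and -119 to -112 of Klf6, and in 2.93% of all windows. It was added to the motifs after these sequences were seen, so that share is no test of its presence here. The complete element TGACGTCA (1.55% of all windows), the AP-1 site TGACTCA with its reverse TGAGTCA (4.46%), the ETS core CCGGAA (12% of windows) and the serum response factor site known as the CArG box (1.47%) were in none of the 8 windows. Matches further upstream than 250 bases, or near Egr1 and Ier2, were not looked up, so these genes may hold such sites elsewhere. GCGNGGGCG, the site of EGR proteins, was in the window of Fosb (4.7% of all windows), overlapping no other match. All motifs were searched on both strands, and TGACG is contained in TGACGTCA.

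Averaged over the 8 libraries, Jund (9.48 FPKM) and Ier2 (9.07 FPKM) had the highest levels. Junb (5.17 FPKM) and Jun (4.79 FPKM) followed, then Egr1 (2.74 FPKM), Klf6 (1.92 FPKM), Atf3 (0.933 FPKM), Ier3 (0.650 FPKM), Fos (0.450 FPKM) and Fosb (0.0313 FPKM). The ranges over libraries of Jund (6.09 to 12.2 FPKM) and Ier2 (6.02 to 12.7 FPKM) overlapped almost completely, as did those of Junb (2.29 to 7.78) and Jun (2.64 to 8.16), so neither pair was ordered beyond its spread. Egr1 ranged most widely relative to its mean among the genes above 1 FPKM, from 0.285 to 8.70 FPKM.

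**Figure D1:**
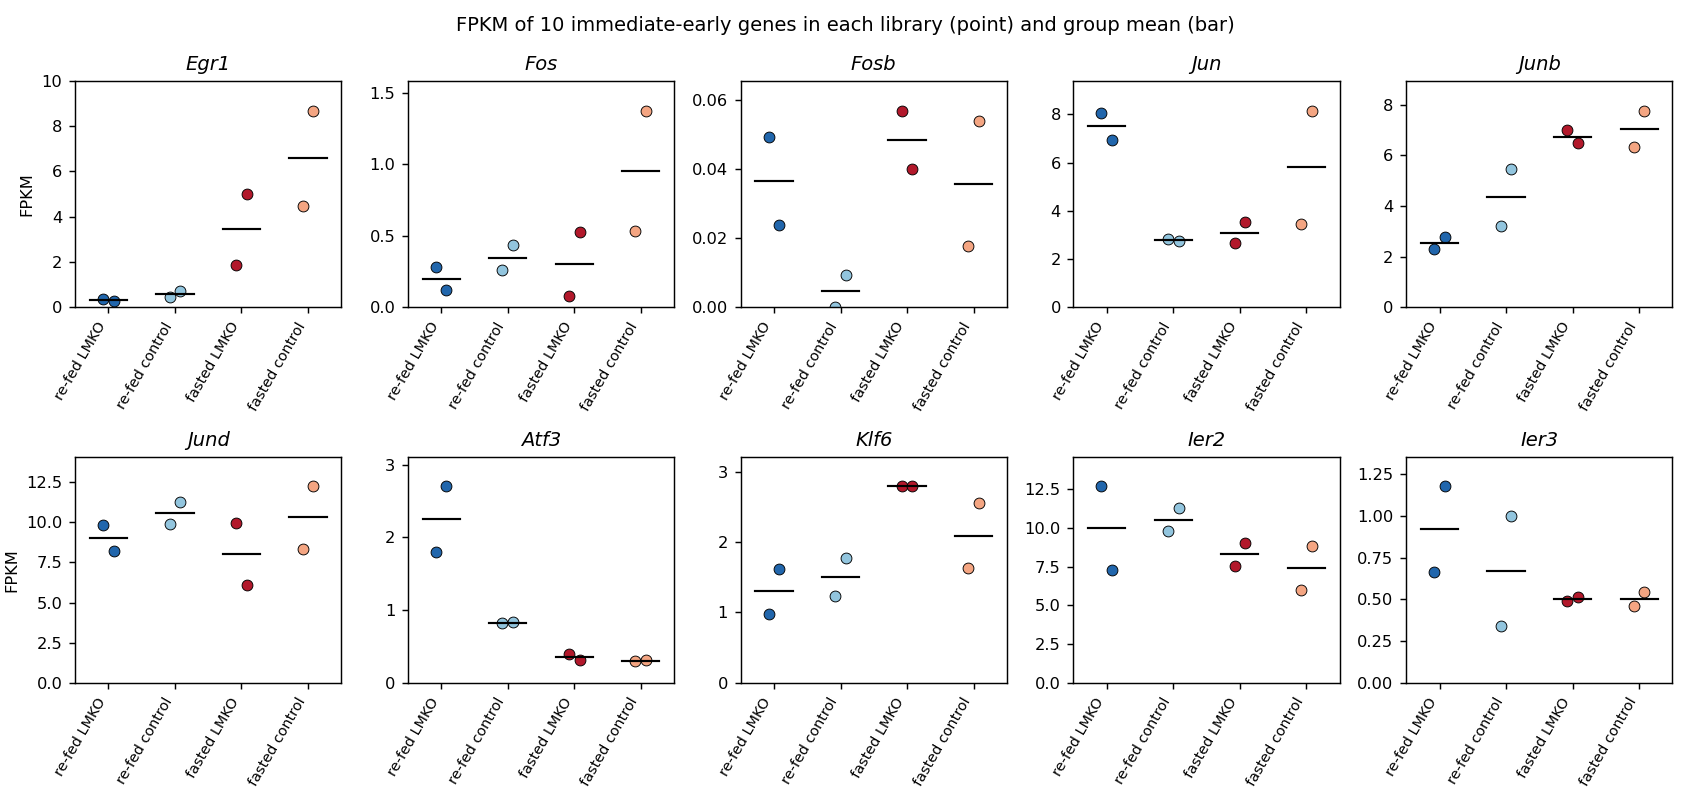
Each panel plots the FPKM of a gene (vertical axis, from 0, with its own scale) in the 2 libraries of each of the 4 groups; points are libraries and bars are group means. Egr1 lay between 0.285 and 0.731 FPKM in the 4 re-fed libraries and between 1.88 and 8.70 FPKM in the 4 fasted ones, and Atf3 ran the other way.

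Egr1 (chr18, 35020861 to 35024610, mm9) was lower in re-fed than in fasted liver in both genotypes and held the largest change of the group. It had 0.378 and 0.285 FPKM in re-fed LMKO, against 1.88 and 4.98 FPKM in fasted LMKO. It had 0.454 and 0.731 FPKM in re-fed control, against 4.47 and 8.70 FPKM in fasted control. The highest re-fed library lay below the lowest fasted one in each genotype and over both together. Mean FPKM was 0.331 ± 0.0660 in re-fed LMKO and 3.43 ± 2.19 in fasted LMKO, so the re-fed mean was 10.4-fold lower; it was 0.592 ± 0.196 in re-fed control and 6.59 ± 2.99 in fasted control, where the re-fed mean was 11.1-fold lower (SD, n = 2 each). The scale of the test, log2(FPKM + 1), compresses changes among low values; on it the log2 fold change was -1.64 in LMKO (SE 0.38, limma adjusted p = 0.0165) and -2.20 in control (SE 0.38, limma adjusted p = 0.00841), so Egr1 fell in both. Over both genotypes the log2 fold change was -1.92 (SE 0.27, limma adjusted p = 0.00167), and -3.06 with a pseudocount of 0.1. The call over both genotypes and the call in controls were kept without each library in turn, whereas the call in LMKO was lost without fasted LMKO replicate 2 (log2 fold change -1.11, limma adjusted p = 0.0678) or without either re-fed LMKO library (adjusted p = 0.0625 without replicate 1 and 0.0736 without replicate 2). Egr1 was fitted because its 4 fasted libraries were above 1 FPKM; none of the re-fed libraries was. In RNA of whole liver, fewer cells of a type and less RNA per cell cannot be told apart.

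The genotype difference of Egr1 did not pass in either feeding state. The fasted LMKO values of 1.88 and 4.98 FPKM overlapped the fasted control values of 4.47 and 8.70 FPKM, with a log2 fold change of -0.81 (SE 0.38, limma adjusted p = 0.459). After re-feeding both LMKO libraries lay below both controls, at 0.378 and 0.285 FPKM in LMKO and 0.454 and 0.731 FPKM in control, which is a small difference in level (log2 fold change -0.25 ± 0.38 SE, adjusted p = 0.819 by limma). Over both feeding states the log2 fold change was -0.53 (SE 0.27, limma adjusted p = 0.406), and 3 of the 4 LMKO libraries were below both controls of their feeding state. A difference between the genotypes in the re-feeding response of Egr1 did not pass either (difference of log2 fold changes 0.56, SE 0.54, limma adjusted p = 0.744).

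Fos and Fosb, which encode partners of JUN in AP-1, were too low for the filter of at least 1 FPKM in 2 libraries. Fos (chr12, 86814851 to 86818219) had 0.279 and 0.119 FPKM in re-fed LMKO and 0.257 and 0.434 FPKM in re-fed control. It had 0.0768 and 0.529 FPKM in fasted LMKO and 0.531 and 1.38 FPKM in fasted control. Fasted control replicate 2 was the only library above 1 FPKM, and it was also the highest library for Egr1. Fosb (chr7, 19888045 to 19895394) had 0.0492 and 0.0236 FPKM in re-fed LMKO, and re-fed control was listed at 0 and 0.00917 FPKM. It had 0.0568 and 0.0399 FPKM in fasted LMKO and 0.0175 and 0.0539 FPKM in fasted control, so that re-fed control was the lowest group. In a fit without the filter, the log2 fold change of Fos over both genotypes was -0.30 after re-feeding (SE 0.18, limma adjusted p = 0.261) and that of Fosb -0.03 (SE 0.02, limma adjusted p = 0.216). The genotype difference of Fos over both feeding states was -0.37 in that fit (SE 0.18, limma adjusted p = 0.494).

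Jun, the main partner of FOS proteins, gave different pictures in LMKO and in control. Jun (chr4, 94715727 to 94718913) had 8.05 and 6.95 FPKM in re-fed LMKO, against 2.64 and 3.51 FPKM in fasted LMKO. It had 2.81 and 2.74 FPKM in re-fed control, against 3.43 and 8.16 FPKM in fasted control. Both re-fed LMKO libraries thus lay above both fasted LMKO libraries, and both re-fed controls lay below both fasted controls. Jun rose in LMKO (mean 7.50 ± 0.777 FPKM re-fed and 3.08 ± 0.612 FPKM fasted, SD, n = 2 each; log2 fold change 1.07 ± 0.32 SE, adjusted p = 0.0361 by limma), and in control it did not pass (mean 2.78 ± 0.0474 FPKM re-fed and 5.79 ± 3.34 FPKM fasted; log2 fold change -0.75 ± 0.32 SE, adjusted p = 0.109 by limma). The rise in LMKO passed without either fasted control but did not pass without replicate 1 or 2 of fasted LMKO (limma adjusted p = 0.150 and 0.0825), of re-fed LMKO (0.138 and 0.0955) or of re-fed control (0.0591 and 0.0590), with all low loci kept (0.0792) or after removal of the length trend (0.0717). Between genotypes in the re-fed state Jun averaged 7.50 FPKM in LMKO and 2.78 FPKM in control without overlap, a 2.70-fold difference of means, yet it did not pass over all loci (log2 fold change 1.17 ± 0.32 SE, adjusted p = 0.315 by limma). The fasted difference ran the other way, with 2.64 and 3.51 FPKM in LMKO and 3.43 and 8.16 FPKM in control (log2 fold change -0.65 ± 0.32 SE, adjusted p = 0.465 by limma). The genotypes' re-feeding responses differed by 1.82 on the log2 scale (SE 0.45), which did not pass over all loci (limma adjusted p = 0.481) but did without fasted control replicate 1 (difference 2.34, limma adjusted p = 0.0444). Without that library Jun was also called lower in re-fed control (log2 fold change -1.28, limma adjusted p = 0.00881), and the single fasted control left, at 8.16 FPKM, was then taken to vary like the other groups. Without fasted control replicate 2 the value in control was -0.23 (limma adjusted p = 0.410).

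Junb, a JUN protein that is a weaker activator than JUN itself, was lower after re-feeding. Junb (chr8, 87500808 to 87502647) had 2.29 and 2.79 FPKM in re-fed LMKO, against 6.99 and 6.50 FPKM in fasted LMKO, and 3.22 and 5.47 FPKM in re-fed control, against 6.32 and 7.78 FPKM in fasted control. All 4 re-fed libraries lay below all 4 fasted ones. Junb fell in LMKO (mean 2.54 ± 0.350 FPKM re-fed and 6.74 ± 0.351 FPKM fasted, SD, n = 2 each; log2 fold change -1.13 ± 0.21 SE, adjusted p = 0.00822 by limma) and over both genotypes (log2 fold change -0.87 ± 0.15 SE, adjusted p = 0.00347 by limma), and both calls were kept without each library in turn and under every other setting tried. In control the means were 4.35 ± 1.59 FPKM re-fed and 7.05 ± 1.03 FPKM fasted, and the log2 fold change of -0.62 did not pass (SE 0.21, limma adjusted p = 0.0656). That comparison did pass after median-ratio scaling (-0.74, limma adjusted p = 0.0404), with the length trend removed (-0.95, adjusted p = 0.0193) and without re-fed control replicate 2 (-0.92, adjusted p = 0.0280), whereas the value was -0.31 (adjusted p = 0.224) without re-fed control replicate 1 and -0.49 (adjusted p = 0.249) without fasted control replicate 2. Between the re-fed genotypes Junb was lower in both LMKO libraries than in both controls, with a log2 fold change of -0.57 that did not pass (SE 0.21, limma adjusted p = 0.402); leaving out a re-fed control moved it to -0.26 (replicate 2 left out) or -0.87 (replicate 1 left out). Jund (chr8, 73221638 to 73224515), the JUN protein that resting cells express, had 9.82 and 8.21 FPKM in re-fed LMKO and 9.89 and 11.3 FPKM in re-fed control, and 9.95 and 6.09 FPKM in fasted LMKO and 8.36 and 12.2 FPKM in fasted control. Its re-fed and fasted values overlapped, and its log2 fold change over both genotypes was 0.12 (SE 0.18, limma adjusted p = 0.602), with the sign turned when the length trend was removed (-0.26, adjusted p = 0.262).

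Atf3 was higher in re-fed than in fasted liver, with the highest values in re-fed LMKO. Atf3 (chr1, 192994176 to 193007212) had 1.80 and 2.70 FPKM in re-fed LMKO, against 0.393 and 0.306 FPKM in fasted LMKO. It had 0.821 and 0.832 FPKM in re-fed control, against 0.301 and 0.308 FPKM in fasted control. All 4 re-fed libraries lay above all 4 fasted ones, and both re-fed LMKO libraries lay above both re-fed controls. Mean FPKM was 2.25 ± 0.636 in re-fed LMKO and 0.350 ± 0.0615 in fasted LMKO, a 6.44-fold rise, and 0.827 ± 0.00813 in re-fed control and 0.304 ± 0.00547 in fasted control, a 2.72-fold difference (SD, n = 2 each). On the log2 scale Atf3 rose by 1.26 in LMKO (SE 0.15, limma adjusted p = 0.00235) and by 0.87 over both genotypes (SE 0.11, limma adjusted p = 0.000998), calls that were kept without each library in turn; over both genotypes the value was 1.78 with a pseudocount of 0.1 and 0.56 with the length trend removed. In control the log2 fold change of 0.49 passed narrowly (SE 0.15, limma adjusted p = 0.0481). It did not pass without either fasted control (limma adjusted p = 0.123 and 0.141), either fasted LMKO library (0.0720 and 0.0725) or either re-fed control (0.123 and 0.144), after median-ratio scaling (0.0549), with no filter (0.0619), with the length trend removed (log2 fold change 0.17, adjusted p = 0.390), with only the 4 control libraries (0.0553) or with a replicate block (0.0679). Between genotypes Atf3 had a log2 fold change of 0.82 in the re-fed state (SE 0.15, limma adjusted p = 0.235) and 0.43 over both states (SE 0.11, limma adjusted p = 0.173), neither of which passed, and the responses of the genotypes to re-feeding differed by 0.77 (SE 0.21, limma adjusted p = 0.507). Atf3 passed the filter on low values only through its 2 re-fed LMKO libraries.

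Klf6, which is best known in liver from activated stellate cells, was lower after re-feeding. Klf6 (chr13, 5860735 to 5869639) had 0.985 and 1.62 FPKM in re-fed LMKO, against 2.796 and 2.793 FPKM in fasted LMKO, and 1.23 and 1.77 FPKM in re-fed control, against 1.63 and 2.55 FPKM in fasted control. The groups did not overlap in LMKO and overlapped in control. Klf6 fell in LMKO (log2 fold change -0.73 ± 0.21 SE, adjusted p = 0.0301 by limma) and over both genotypes (-0.52, SE 0.15, adjusted p = 0.0228), but in control it did not pass (-0.30, SE 0.21, limma adjusted p = 0.300). The LMKO call was lost without fasted LMKO replicate 1 or 2 (limma adjusted p = 0.103 and 0.107), without re-fed LMKO replicate 1 (0.147), with no filter (0.0643) and with the length trend removed (0.0581). The call over both genotypes was lost without fasted control replicate 2 (limma adjusted p = 0.0619), fasted LMKO replicate 1 or 2 (0.0594 and 0.0604), re-fed control replicate 1 (0.0682) or, in LMKO, re-fed replicate 1 (0.0686).

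Ier2 and Ier3 did not pass in any comparison. Ier2 (chr8, 87185230 to 87186751) had 12.7 and 7.29 FPKM in re-fed LMKO and 9.78 and 11.3 FPKM in re-fed control, and 7.54 and 9.04 FPKM in fasted LMKO and 6.02 and 8.86 FPKM in fasted control. Re-fed LMKO replicate 2 lay within the fasted range, and without it Ier2 was called higher after re-feeding (log2 fold change 0.52, limma adjusted p = 0.0431, against 0.34, SE 0.19, adjusted p = 0.177 with all libraries). Ier3 (chr17, 35958658 to 35959856) had 0.663 and 1.18 FPKM in re-fed LMKO and 0.343 and 1.001 FPKM in re-fed control, and 0.493 and 0.517 FPKM in fasted LMKO and 0.461 and 0.545 FPKM in fasted control. The re-fed controls lay on both sides of the fasted values (log2 fold change over both genotypes 0.23, SE 0.15, limma adjusted p = 0.238). The longest annotated transcripts of Ier3, Ier2 and Jund have 1131, 1522 and 1668 bases, the shortest of the 10 genes, and with the length trend removed all 3 changed sign over both genotypes (-0.29, -0.07 and -0.26).

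**Figure D2:**
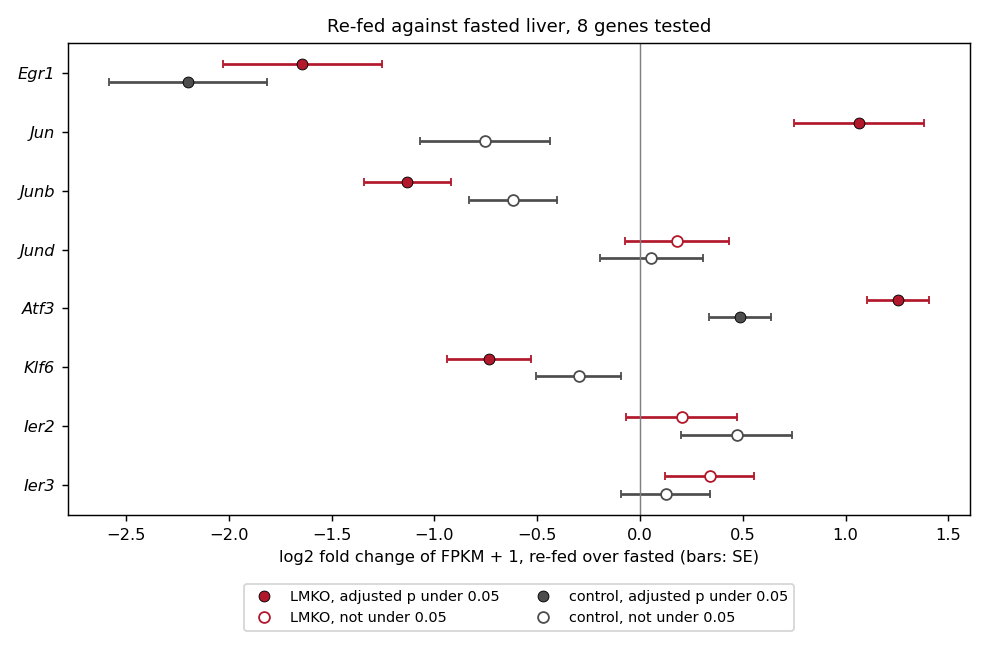
The horizontal axis gives the log2 fold change of FPKM + 1, re-fed over fasted, of the 8 genes that passed the filter, in LMKO (red) and control (grey); bars are standard errors and filled points have a limma adjusted p under 0.05. Egr1 was lower and Atf3 higher in both genotypes, and Jun lay on opposite sides of 0.

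A large share of all loci differed between re-fed and fasted libraries, which the file name prefix splits in the same way. The counts of these genes are set beside that share. In LMKO 5 of the 8 tested genes were called after re-feeding, 2 higher and 3 lower, where 39.5% of all 10865 loci were called (23.2% higher and 16.3% lower). In control 2 of 8 were called, 1 higher and 1 lower, against 33.2% of all loci (22.8% higher and 10.5% lower), and over both genotypes 4 of 8, 1 higher and 3 lower, against 53.1% (32.4% higher and 20.6% lower). Egr1, Atf3 and Ier3 passed the filter through the feeding state in which they were high, so these counts describe the genes and do not bear on whether the group stands apart. The median log2 fold change of the 8 genes over both genotypes was 0.14, against 0.10 for all loci. Re-fed and fasted libraries did not overlap for 6 of the 8 genes in LMKO (75.3% of all loci) and 5 in control (68.9%). Over both genotypes this held for 3 of the 8 (Egr1, Junb and Atf3), against 45.9% of all loci. All loci leaned upward after re-feeding: in control 2473 were higher and 1137 lower, a split that became 1839 higher and 1609 lower after median-ratio scaling and 1372 higher and 1344 lower with the length trend removed. Over both genotypes 3523 were higher and 2242 lower, which became 2448 higher and 2434 lower with the length trend removed. Those settings moved the median of all loci in control by -0.12 and -0.13 on the log2 scale. In control Egr1 was called lower under both settings, while Atf3 was called under neither (limma adjusted p = 0.0549 and 0.390).

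Markers of other liver cells moved with feeding as well; over both genotypes 32.4% of all loci were called higher and 20.6% lower, which is the background for the marker calls. Sinusoidal endothelial markers summed to between 77.6 and 105 FPKM in re-fed LMKO, against 164 to 187 FPKM in fasted LMKO, and to between 94.0 and 103 FPKM in re-fed control, against 138 to 147 FPKM in fasted control. Of the 12 endothelial markers 0 were called higher and 10 lower over both genotypes. Macrophage markers summed to between 82.8 and 116 FPKM in re-fed LMKO, against 175 to 214 FPKM in fasted LMKO, and to between 127 and 179 FPKM in re-fed control, against 151 to 190 FPKM in fasted control, with 0 of 12 called higher and 5 lower. Stellate cell markers summed to between 47.1 and 61.1 FPKM in re-fed LMKO, against 86.2 to 94.97 FPKM in fasted LMKO, and to between 64.2 and 81.9 FPKM in re-fed control, against 85.3 to 91.3 FPKM in fasted control, with 1 of 10 called higher (Col3a1) and 3 lower (Dcn, Hgf and Reln). The median log2 fold change of the 10 stellate markers was nevertheless above 0, at 0.21 over both genotypes and 0.43 in control, against a fall in their sum; 6 of the 10 had positive values. Hepatocyte markers summed to between 27479 and 30020 FPKM in re-fed LMKO, against 29965 to 30542 FPKM in fasted LMKO, and to between 21922 and 26109 FPKM in re-fed control, against 31055 to 31328 FPKM in fasted control. Of 10 hepatocyte markers tested 2 were called higher and 5 lower over both genotypes (median log2 fold change -0.35), so lower calls were not limited to markers of the other cells. Bile duct markers summed to between 24.2 and 26.3 FPKM in re-fed LMKO, against 8.13 to 9.43 FPKM in fasted LMKO, and to between 28.5 and 30.2 FPKM in re-fed control, against 8.44 to 12.05 FPKM in fasted control; of 3 tested 1 was called higher, Spp1. Neutrophil, T and NK cell, and B cell markers summed to at most 9.75, 3.82 and 1.81 FPKM in any library. These marker sums and calls were not examined with the length trend removed, so the part of that trend in them was not tested. The part of these cells in the fall of Egr1, Junb and Klf6 was not tested either.

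**Figure D3:**
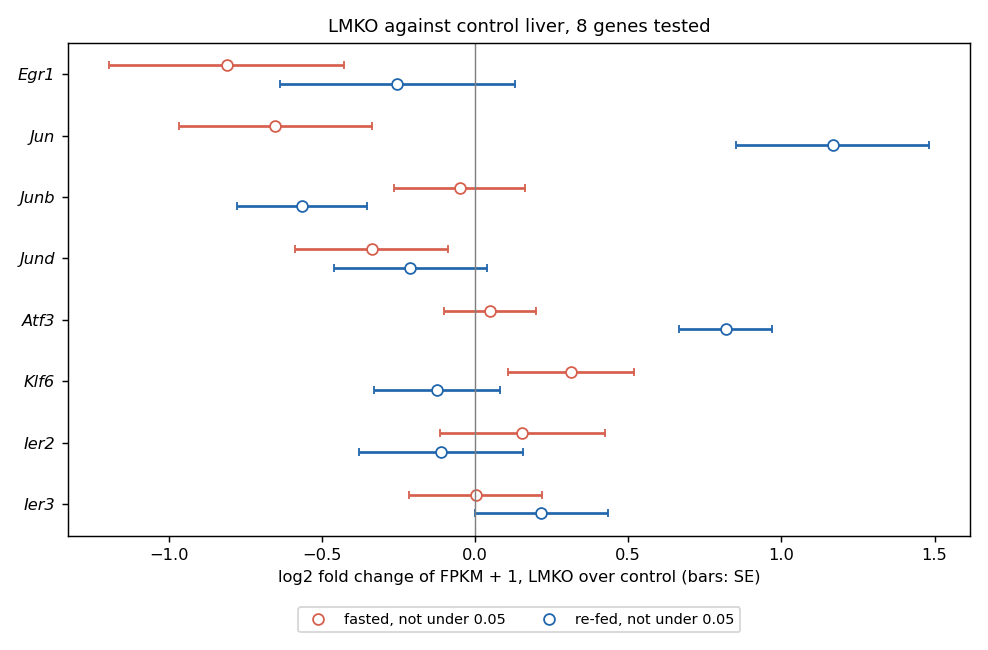
The horizontal axis gives the log2 fold change of FPKM + 1, LMKO over control, of the 8 tested genes in the fasted (red) and re-fed (blue) state; bars are standard errors and open points mark a limma adjusted p that was not under 0.05. Jun and Atf3 had the largest positive values in the re-fed state, at 1.17 and 0.82, and Egr1 the lowest in the fasted state, at -0.81.

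None of the 8 tested genes differed past the threshold between LMKO and control. By limma 0 of 8 were called in the fasted state, where 0.166% of all loci were called, 0 of 8 in the re-fed state (0.101% of all loci) and 0 of 8 over both (0.313%). At an unadjusted limma p under 0.05 there were 0, 3 and 1 of them: Jun, Junb and Atf3 in the re-fed state, and Atf3 over both. Of all loci, 12.4%, 11.7% and 15.1% were under that unadjusted level in the 3 comparisons, so the count over both states was near the share of all loci. In the re-fed state, 5 of the 8 tested genes had LMKO and control libraries that did not overlap, Atf3 and Jun higher and Egr1, Junb and Jund lower, against 45% of all loci. In the fasted state it was 1 of 8, Klf6, which was higher in LMKO, against 45.8% of all loci. With 2 mice a group, the standard error of a genotype difference in 1 feeding state lay between 0.15 for Atf3 and 0.38 for Egr1 on the log2 scale. The difference between the genotypes in the re-feeding response was called for 0 of the 8 genes (limma adjusted p from 0.481 to 0.923), against 0.0368% of all loci, with 2 at an unadjusted limma p under 0.05, Jun and Atf3, against 9.35% of all loci at that level. Atf3 passed the filter only through its 2 re-fed LMKO libraries, the group in which it was high. The counts of this paragraph that hold Atf3 thus do not bear on whether the group stands apart.

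**Figure D4:**
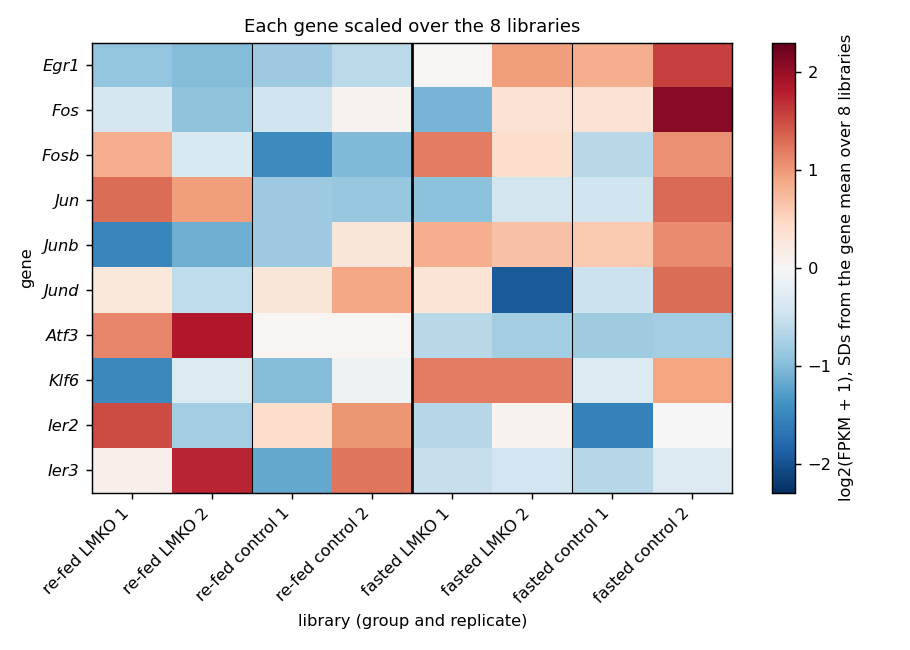
Rows are the 10 genes and columns the 8 libraries, with the re-fed libraries left of the thick line; colour gives log2(FPKM + 1) in standard deviations from the gene's mean over the 8 libraries. Fasted control replicate 2 had the highest value of Egr1, Fos, Jun, Junb and Jund, at 1.57, 2.10, 1.30, 1.08 and 1.29 standard deviations.

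The libraries of a group did not always stand together. Fasted control replicate 2 had the highest FPKM of all 8 libraries for Egr1, Fos, Jun, Junb and Jund, while its companion, fasted control replicate 1, was close to fasted LMKO replicate 2 for Egr1, Fos and Jun. Fasted LMKO replicate 1 was the lowest fasted library for Egr1 (1.88 FPKM), Fos (0.0768 FPKM) and Jun (2.64 FPKM). Without fasted control replicate 2 the genotype difference of Egr1 in the fasted state was -0.40 on the log2 scale, and without fasted control replicate 1 it was -1.22, against -0.81 with both; without fasted LMKO replicate 1 or 2 it was -0.28 and -1.34. For Jun the difference was -0.13 without fasted control replicate 2 and -1.18 without fasted control replicate 1, against -0.65 with both. None of these values passed.

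Genes around the group were examined as lists. Of 36 other immediate-early genes 26 were tested, and over both genotypes 4 were called higher and 7 lower after re-feeding (median log2 fold change -0.39, against 0.10 for all loci). These 11 of 26 stand beside 53.1% of all loci called in that comparison, so calls were no more frequent in the list than among all loci. Bhlhe40, a circadian repressor, rose by 1.45 on the log2 scale (SE 0.14, limma adjusted p = 0.000422). Cyr61, a matricellular protein, rose by 1.43 (SE 0.16, limma adjusted p = 0.00079) and Id3, an inhibitor of basic helix-loop-helix factors, by 1.94 (SE 0.32, adjusted p = 0.00305). Ppp1r15a, which directs a phosphatase to the translation factor eIF2α, fell by 0.72 (SE 0.08, limma adjusted p = 0.000674). In control alone 4 were higher and 4 lower, among them Cebpd and Cebpb, bZIP factors of hepatocytes and the acute phase, which fell by 1.57 (SE 0.25, limma adjusted p = 0.00685) and 1.28 (SE 0.21, adjusted p = 0.00691). In LMKO 3 were higher and 2 lower, and the shares of all loci called were 33.2% in control and 39.5% in LMKO.

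The 53.1% of all loci called over both genotypes also stands beside the next 3 lists. Of 15 possible dimer partners of AP-1 proteins 10 were tested, with 2 higher and 5 lower after re-feeding over both genotypes (median -0.30). Atf4, the factor of the amino acid response, rose by 0.62 (SE 0.11, limma adjusted p = 0.00357), while Atf7 fell by 0.83 (SE 0.14, adjusted p = 0.00286), Maf by 0.59 (SE 0.10, adjusted p = 0.00366) and Atf2 by 0.34 (SE 0.08, adjusted p = 0.0103). Of 25 genes that carry signals to immediate-early promoters 24 were tested, with 4 higher and 8 lower (median -0.13), a share near that of all loci. Elk4, an ETS factor that binds with serum response factor, fell by 1.52 (SE 0.17, limma adjusted p = 0.000684). Braf, a kinase of the ERK pathway, fell by 0.85 (SE 0.09, limma adjusted p = 0.000584), Rps6ka3, a kinase downstream of ERK, by 0.70 (SE 0.09, adjusted p = 0.001) and Crtc2, a coactivator of CREB in fasted liver, by 0.64 (SE 0.09, adjusted p = 0.0016). Of 19 feedback genes 14 were tested, with 2 higher and 3 lower (median -0.10): Zfp36l2, an RNA-binding protein that speeds mRNA decay, fell by 1.45 (SE 0.15, limma adjusted p = 0.00057) and Spred2, an inhibitor of the ERK pathway, by 0.80 (SE 0.14, adjusted p = 0.00317). Spred1 fell by 0.61 (SE 0.17, limma adjusted p = 0.0214), while Dusp6 rose by 0.57 (SE 0.15, adjusted p = 0.0178). The calls of Spred1 and Dusp6 were lost with the length trend removed (limma adjusted p = 0.0924 and 0.0849). With the length trend removed Atf4 was at 0.32, Atf7 at -0.55, Maf at -0.36, Braf at -0.44 and Rps6ka3 at -0.42, each still called. Between LMKO and control over both feeding states, limma called 0 of the 26, 10, 24 and 14 tested genes of these 4 lists, with 7, 1, 3 and 3 at an unadjusted limma p under 0.05, where 0.313% of all loci were called and 15.1% were under the unadjusted level. Fosl2 and Maff stand in the lists of both other immediate-early genes and dimer partners.

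**Figure D5:**
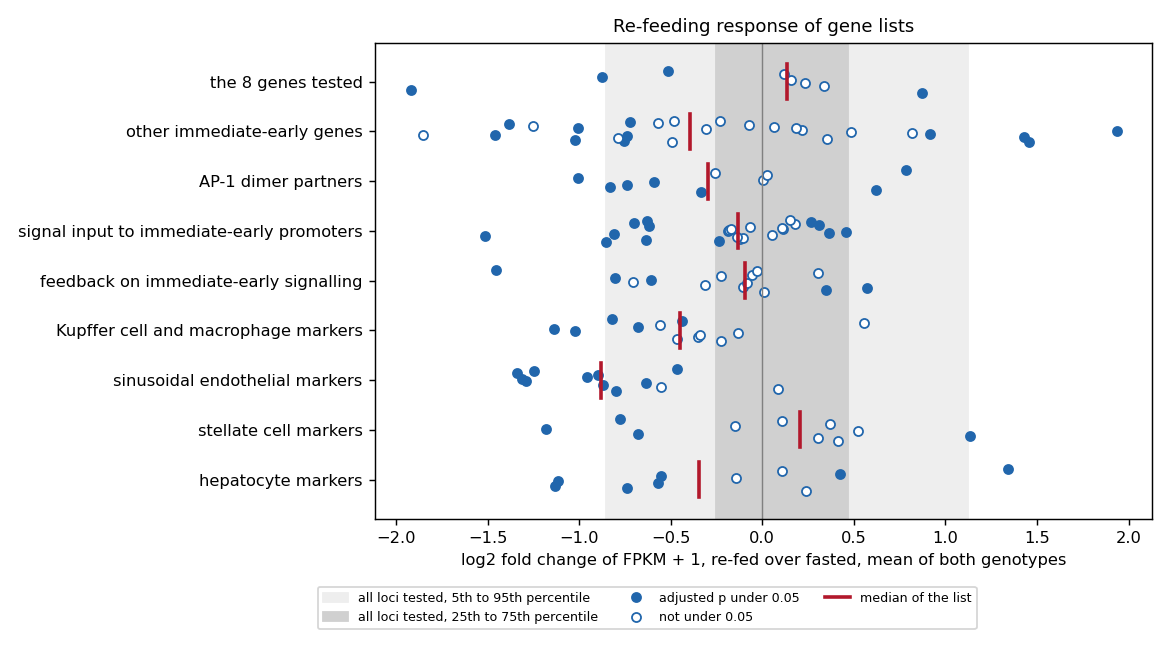
Points give the log2 fold change of FPKM + 1, re-fed over fasted and averaged over both genotypes, for each tested gene of a list; filled points have a limma adjusted p under 0.05, red bars are list medians and the grey bands hold the middle of all 10865 loci. The 8 genes spread from -1.92 for Egr1 to 0.87 for Atf3, and the endothelial markers lie mostly to the left of 0.

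The genes whose pattern over the 8 libraries was most like that of Egr1 were looked up among 7319 loci that averaged 5 FPKM or more in a group. By Pearson's correlation of log2(FPKM + 1) they were Fam134b (0.985), F9 (0.972), Fmo2 (0.972), Eif4ebp3 (0.972) and Prelp (0.971). Fam134b, for example, had 12.02 and 16.1 FPKM in re-fed LMKO, against 40.1 and 61.5 FPKM in fasted LMKO, and 14.1 and 20.0 FPKM in re-fed control, against 59.5 and 125 FPKM in fasted control, with its highest value in fasted control replicate 2 as for Egr1. The points of these correlations fall into a re-fed and a fasted set and share their libraries. For the mean of the 8 tested genes, each scaled to its own SD, the nearest loci were Rnf31 (0.887), Phax (0.866), Myd88 (0.828), St7 (0.815) and Gstt2 (0.785), and fasted control replicate 2 held the highest FPKM of each of them. The 8 genes did not run together, with Pearson correlations from -0.887 (Atf3 with Junb) to 0.852 (Junb with Klf6). Opposite responses to feeding therefore cancel in their mean, and these loci do not follow a pattern shared by the group.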

How the data were processed

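Per the labels' protocols, RNA was extracted with Trizol and libraries were made from polyadenylated liver RNA with a TruSeq kit. Per the submitters' processing notes, TopHat 1.4.1, Cufflinks 2.0.2, Cuffdiff 2.0.2 and the build mm9 were used. How FPKM was scaled across libraries is not given in these sources. The authors deposited 1 FPKM value per locus and library, and these were used as deposited. FPKM holds no counts, so depth is unknown and no interval for counting error was given; a value listed at 0 can be a failed estimate. Locus starts were printed 1 higher than deposited, because the deposited end minus start matched the length of a reference gene at 8902 of 20982 loci, and that difference plus 1 did at 549.

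Groups came from the sample titles. The series' design gives n = 2 per group. The p-values rest on the spread within groups of these samples only, pooled over the 4 groups and moderated over all loci. Loci with 1 FPKM or more in 2 or more libraries (10865) were fitted as log2(FPKM + 1) by limma 3.58.1 (R 4.3.3), with a mean for each of the 4 groups, moderated variances following a trend on the mean, and 4 residual and 2.74 prior degrees of freedom. Two-sided p-values were adjusted by Benjamini-Hochberg over all loci of a comparison, and called under 0.05. The code was tested on simulated data. All 10 genes were named; from other lists, up to 4 called genes with the smallest p per comparison, not all of which are printed. Alternatives were a pseudocount of 0.1, no filter, at least 5 FPKM in 2 libraries, median-ratio scaling, removal of the length trend (lowess on the longest GENCODE vM21 transcript, 10761 loci), a replicate block, only the libraries compared, and each library left out. Promoter windows are RefSeq's, on GRCm38.p6, with the bases before the start only; TGACATCA was added to the motifs after the sequences were seen. The genes and lists were chosen with earlier results of these data known.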

Additional observations from a re-analysis of the deposited data

How the results depend on the processing

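For 48 fold changes refitted under alternatives, 666 values were obtained: 613 kept their direction and side of the threshold, 40 lost a call, 7 gained one and 6 changed sign. Many of these refits could not move the fold change. A filter, a replicate block or the loss of a library outside the comparison alters only the standard error and p. Fold changes that were not called at first also had no call to lose, so the 613 is not a measure of robustness. Of the 10 genes, 5 were called in LMKO after re-feeding, which became 3 with no filter or with the length trend removed and 2 with at least 5 FPKM in 2 libraries, where Egr1, Atf3 and Klf6 are no longer tested. In control the 2 calls became 1 with no filter, with a replicate block or with only the 4 control libraries, and 0 with at least 5 FPKM; over both genotypes 4 became 1 with at least 5 FPKM. Leaving out each library gave 2 to 5 calls in LMKO, 1 to 2 in control, 3 to 5 over both genotypes and 0 to 1 for the difference between the genotypes. The genotype comparisons gave 0 calls among the 10 genes under every alternative run. Over both genotypes Jund, Ier2 and Ier3 changed sign with the length trend removed (-0.26, -0.0733 and -0.29); without a library Jund ran from -0.0398 to 0.27 and Jun from -0.11 to 0.42, where Jun was called without fasted control replicate 2 (limma adjusted p = 0.0305). The cause was not tested.

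Over all loci, the 18 fasted genotype calls became 11 with no filter, 8 with only the 4 fasted libraries and 57 without fasted control replicate 1. The 11 re-fed calls ran from 5 to 14 and the 34 over both states from 18 to 55 without a library, and those over both states were 18 with the replicate block. Re-feeding calls ran from 2193 to 4251 in LMKO (4296 with all libraries) and from 1539 to 3151 in control (3610), and were 1968 with only the 4 control libraries; the difference between the genotypes gave 3 to 16 calls without a library, 7 with no filter and 2 with the length trend removed (4 with all). The labels do not say what the replicate numbers mark. Over the tested loci, deviations of same-numbered libraries correlated at -0.0835 to -0.00835 between groups, a measure that cannot show a pairing that touches few genes. The replicate block ended the Atf3 call in control (limma adjusted p = 0.0679) and no other call of the 10 genes. Depth is unknown, and 2 mice a group limit every comparison.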
